A study of Homo sapiens with 9 samples.

Results

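CD74 and 6 genes of the major histocompatibility complex (MHC) class II system were followed across HaCaT cells carrying a mutant FTO, wild-type FTO or an empty vector. The 7 genes are CD74, HLA-DRA, HLA-DRB1, HLA-DMA, HLA-DMB, HLA-DPA1 and CIITA, found by symbol among 21170 rows of the count table. All 7 were among the 13713 genes with enough counts to be tested. They were named with their values in these same comparisons known, so their levels and differences are given as a description. Where calls that include them are counted below, those counts are no test of them. CD74 was lower in all 6 libraries with either form of FTO than in any Vector library, and HLA-DRA, HLA-DMA and HLA-DPA1 were as well. CIITA was not lower in mut-FTO than in Vector. In FTO its log2 fold change against Vector was -0.57 (SE 0.28), with libraries that overlapped those of Vector.

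HaCaT is an established line of human keratinocytes that became immortal in culture, and keratinocytes form the epidermis. Poly(A) RNA was sequenced from 3 libraries each of mut-FTO cells (a mutant FTO without normal demethylase activity), FTO cells (wild-type FTO) and Vector cells (empty vector). FTO demethylates adenosines in RNA. The series is about FTO, psoriasis-like dermatitis and FN1, the gene of fibronectin. The labels name no promoter, no clone and no other agent, all groups share the 1 line, and whether the libraries within a group were separate cultures is not said. Any p-value below therefore sets a difference between groups against the spread between these libraries, which may be technical.

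MHC class II molecules carry peptides from endosomes to the cell surface, where CD4+ T cells recognise them. Each is a pair of an alpha and a beta chain, as in DR, DP and DQ. CD74, the invariant chain, binds new pairs, blocks the groove and guides them to endosomes. There proteases trim CD74 to a short peptide called CLIP, and the DM pair exchanges CLIP for other peptides. CIITA is the coactivator that joins the RFX, CREB and NF-Y proteins on the promoters of these genes. Professional antigen-presenting cells express the system constantly, while keratinocytes express it mainly after interferon gamma.

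Values are given in CPM, counts scaled to a common library size after TMM normalization in edgeR, and libraries of a group are named in the order of their replicate numbers. Libraries held 32222203 to 37846027 counts, so that 1 count was worth 0.0266 to 0.0340 CPM. FTO itself stood at 49.7 to 82.7 CPM in mut-FTO, 62.6 to 77.1 CPM in FTO and 17.0 to 25.8 CPM in Vector libraries. That separates Vector from the others, while the split between mut-FTO and FTO rests on the letters that head the columns. Vector replicate 3 and mut-FTO replicate 2 stood apart. Mitochondrially encoded genes took 7.45% of counts in mut-FTO replicate 2, against 5.52% and 5.77% in the other mut-FTO libraries. They took 15% in Vector replicate 3, against 4.16% and 4.20% in the other Vector libraries. Assembled loci without a gene name took 3.17% and 2.50% of counts in mut-FTO replicate 2 and Vector replicate 3, against at most 0.874% elsewhere. Differences are therefore also given without these libraries.

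The promoters are shown because class II genes are known to share regulatory sequence. Class II promoters are known for an X box, bound by RFX, followed at a fixed distance by an inverted CCAAT box, bound by NF-Y. RefSeq windows on GRCh38.p14 were at hand for 5 of the 7 genes, and HLA-DRA and CIITA are named only. The sequences below run 5′ to 3′ on the gene's strand, from 120 bases before the start to the base before it. Capitals mark an X core, searched as CNAGNNAC, and a CCAAT read on either strand 15 to 50 bases further on. The letters were chosen with these sequences in view, so the matches are no test of a shared element.
CD74, chr5:150412911-150413030, minus strand: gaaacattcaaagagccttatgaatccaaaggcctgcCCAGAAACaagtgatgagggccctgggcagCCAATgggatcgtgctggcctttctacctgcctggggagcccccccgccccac
HLA-DRB1, chr6:32589849-32589968, minus strand: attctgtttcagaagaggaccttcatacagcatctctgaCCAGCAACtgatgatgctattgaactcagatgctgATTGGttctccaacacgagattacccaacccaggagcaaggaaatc
HLA-DMA, chr6:32953098-32953217, minus strand: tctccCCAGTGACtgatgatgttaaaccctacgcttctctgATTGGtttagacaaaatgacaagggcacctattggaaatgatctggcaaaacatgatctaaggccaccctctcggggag
HLA-DMB, chr6:32941029-32941148, minus strand: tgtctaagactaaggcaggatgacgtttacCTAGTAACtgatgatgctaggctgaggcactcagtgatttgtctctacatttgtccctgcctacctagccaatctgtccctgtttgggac
HLA-DPA1, chr6:33073650-33073769, minus strand: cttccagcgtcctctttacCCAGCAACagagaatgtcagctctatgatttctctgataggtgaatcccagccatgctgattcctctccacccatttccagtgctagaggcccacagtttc

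The X core began at -83 in CD74, -81 in HLA-DRB1, -115 in HLA-DMA, -90 in HLA-DMB and -101 in HLA-DPA1, counted from the start. A CCAAT followed 30 bases on in CD74, 35 in HLA-DRB1 and 36 in HLA-DMA, reading as its reverse complement ATTGG in the HLA genes. No such pair was found in HLA-DMB or in either of the 2 windows of HLA-DPA1, the other of which held no X core. Over all 35116 RefSeq promoter windows of the same 300-base kind, 39.3% held the X core on either strand, 34.6% a CCAAT and 2.61% the spaced pair. A match of these letters is a description of the window, and no match says only that the letters are not in it.

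**Figure D1:**
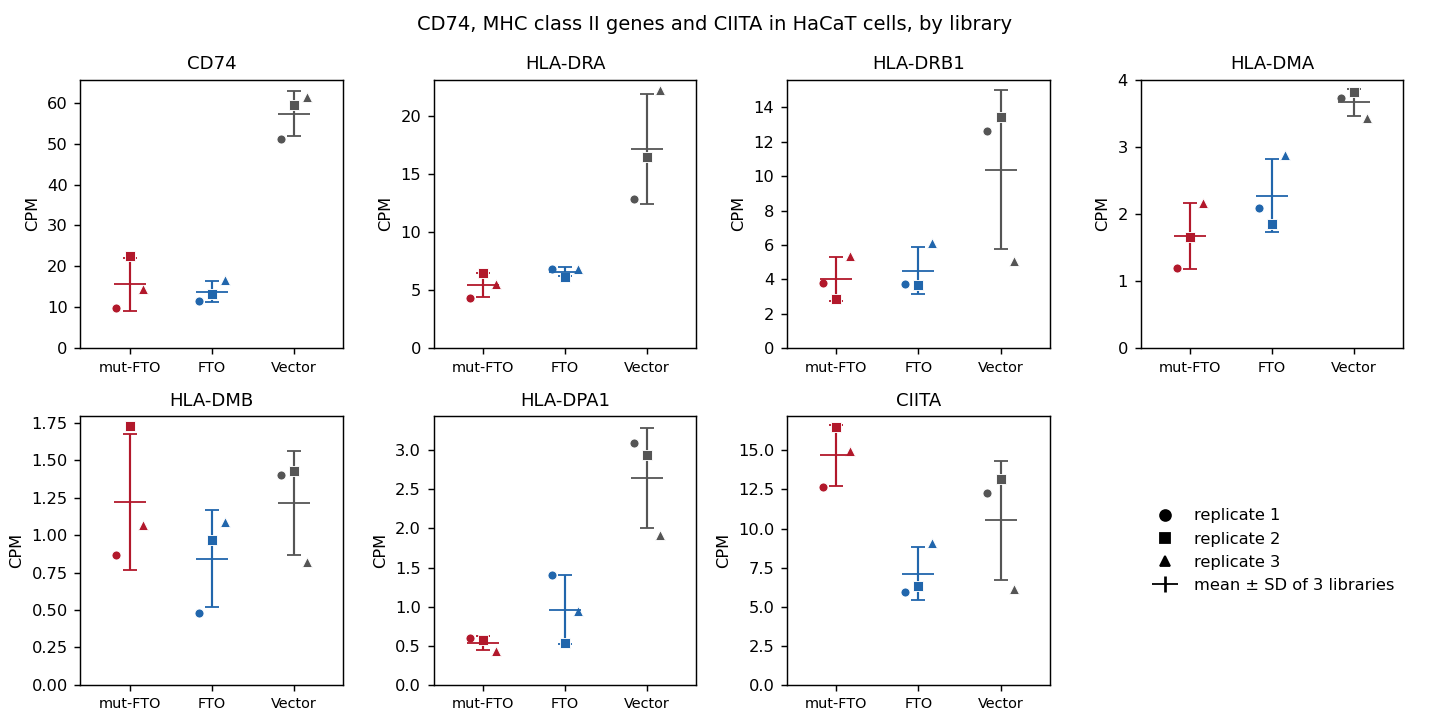
CPM of each of the 7 genes (y axes, linear and starting at 0) in mut-FTO, FTO and Vector libraries; symbols are replicates, crosses the mean ± SD of 3 libraries. All mut-FTO and FTO points of CD74 (9.70 to 22.6 CPM) lie below the Vector points (51.0 to 61.5 CPM), while the CIITA points of mut-FTO (12.6 to 16.5 CPM) lie above those of FTO (5.95 to 9.07 CPM).

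CD74 (chr5:150401637-150412929, minus strand, GRCh38, GENCODE 29) had 9.70, 22.6 and 14.6 CPM in mut-FTO, 11.6, 13.2 and 16.6 CPM in FTO, and 51.0, 59.5 and 61.5 CPM in Vector libraries. The mut-FTO and FTO libraries overlapped each other, and every Vector library stood above all of them. CD74 averaged 15.6 ± 6.52 CPM in mut-FTO, 13.8 ± 2.58 CPM in FTO and 57.4 ± 5.58 CPM in Vector (SD, n = 3 each). Its log2 fold change was -1.88 in mut-FTO (SE 0.27, 3.68-fold lower than in Vector) and -2.06 in FTO (SE 0.27, 4.16-fold lower than in Vector). For mut-FTO against FTO it was 0.18 (SE 0.27), less than its error. Without the libraries that stood apart, the log2 fold changes were -2.22 in mut-FTO and -2.02 in FTO against Vector, and -0.20 for mut-FTO against FTO. In order of CPM, CD74 stood above 49.1% of the tested genes in mut-FTO, 46.4% in FTO and 77.8% in Vector.

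HLA-DRA (chr6:32439842-32445046, plus strand) encodes the alpha chain of DR, a chain that varies little between people. It had 4.33, 6.45 and 5.55 CPM in mut-FTO, 6.80, 6.12 and 6.84 CPM in FTO, and 12.9, 16.4 and 22.2 CPM in Vector libraries. The lowest Vector library was above the highest of the other 6, and the Vector libraries spanned 12.9 to 22.2 CPM. The log2 fold change against Vector was -1.66 in mut-FTO (SE 0.24, 3.16-fold lower) and -1.38 in FTO (SE 0.24, 2.61-fold lower). Without the libraries that stood apart, these were -1.60 in mut-FTO and -1.17 in FTO. For mut-FTO against FTO it was -0.28 (SE 0.24).

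HLA-DRB1 (chr6:32578769-32589848, minus strand) encodes the variable beta chain of DR. It had 3.81, 2.85 and 5.37 CPM in mut-FTO, 3.75, 3.67 and 6.09 CPM in FTO, and 12.7, 13.4 and 5.08 CPM in Vector libraries. Vector replicate 3 lay inside the range of mut-FTO and FTO, while the other Vector libraries were above it. The log2 fold change against Vector was -1.37 in mut-FTO (SE 0.37, 2.58-fold lower) and -1.20 in FTO (SE 0.37, 2.31-fold lower). Without Vector replicate 3 alone it was -1.71 in mut-FTO and -1.56 in FTO, and without mut-FTO replicate 2 as well -1.53 and -1.55. HLA-DRB1 and HLA-DRB5 are near-identical and the alleles of the line are not in the count table, so the division of reads between them is uncertain. HLA-DRA has no such near-identical copy.

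HLA-DMA (chr6:32948613-32969094, minus strand) encodes the alpha chain of the peptide exchanger DM. It had 1.19, 1.66 and 2.17 CPM in mut-FTO, 2.10, 1.85 and 2.89 CPM in FTO, and 3.74, 3.83 and 3.44 CPM in Vector libraries. All 6 libraries with either FTO were below all Vector libraries, and the FTO group lay between the others on average. The log2 fold change against Vector was -1.13 in mut-FTO (SE 0.30, 2.19-fold lower) and -0.69 in FTO (SE 0.30, 1.61-fold lower). Without the libraries that stood apart it was -1.20 in mut-FTO and -0.75 in FTO.

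HLA-DMB (chr6:32934629-32941070, minus strand) encodes the beta chain of the same pair and did not show this order. It had 0.865, 1.73 and 1.07 CPM in mut-FTO, 0.478, 0.966 and 1.09 CPM in FTO, and 1.40, 1.43 and 0.818 CPM in Vector libraries. The 3 groups overlapped, with means of 1.22 ± 0.453, 0.844 ± 0.322 and 1.22 ± 0.345 CPM in mut-FTO, FTO and Vector (SD, n = 3 each). Its counts summed to 120, 92 and 128 in mut-FTO, FTO and Vector. At this depth a difference would have to be large to stand out, and the SE of each log2 fold change was 0.45 or 0.46. Those were 0.0019 for mut-FTO and -0.53 for FTO against Vector, and -0.58 and -0.76 in the same order without the libraries that stood apart.

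HLA-DPA1 (chr6:33064569-33080775, minus strand) encodes the alpha chain of DP and was the scarcest of the 7 in mut-FTO. It had 0.595, 0.577 and 0.433 CPM in mut-FTO, 1.41, 0.536 and 0.944 CPM in FTO, and 3.10, 2.94 and 1.92 CPM in Vector libraries. Every Vector library was above every other, and FTO libraries reached from the mut-FTO range up towards it. The log2 fold change against Vector was -2.30 in mut-FTO (SE 0.42, 4.93-fold lower) and -1.46 in FTO (SE 0.40, 2.74-fold lower). Without the libraries that stood apart it was -2.57 in mut-FTO and -1.66 in FTO. These values rest on 54 counts in mut-FTO, 106 in FTO and 279 in Vector, all libraries summed. The 5′ end of the gene overlaps HLA-DPB1 on the opposite strand, and no strand setting of the counting is given in the sources used here. HLA-DPB1 itself had 0, 0 and 3 counts in mut-FTO, 0, 0 and 4 in FTO, and 10, 13 and 3 in Vector libraries, too few to be tested.

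CIITA (chr16:10866222-10943021, plus strand) had 12.6, 16.5 and 14.9 CPM in mut-FTO, 5.95, 6.30 and 9.07 CPM in FTO, and 12.3, 13.1 and 6.15 CPM in Vector libraries. Every mut-FTO library was above every FTO library, as in 14.2% of tested genes, while Vector spanned both, its replicates 1 and 2 near mut-FTO and its replicate 3 within FTO. CIITA averaged 14.7 ± 1.93 CPM in mut-FTO, 7.11 ± 1.71 CPM in FTO and 10.5 ± 3.82 CPM in Vector (SD, n = 3 each). Its log2 fold change was 1.05 for mut-FTO against FTO (SE 0.28, 2.06-fold higher), 0.48 for mut-FTO against Vector (SE 0.28) and -0.57 for FTO against Vector (SE 0.28). Without the libraries that stood apart it was 0.94 for mut-FTO against FTO, 0.09 for mut-FTO against Vector and -0.85 for FTO against Vector.

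**Figure D2:**
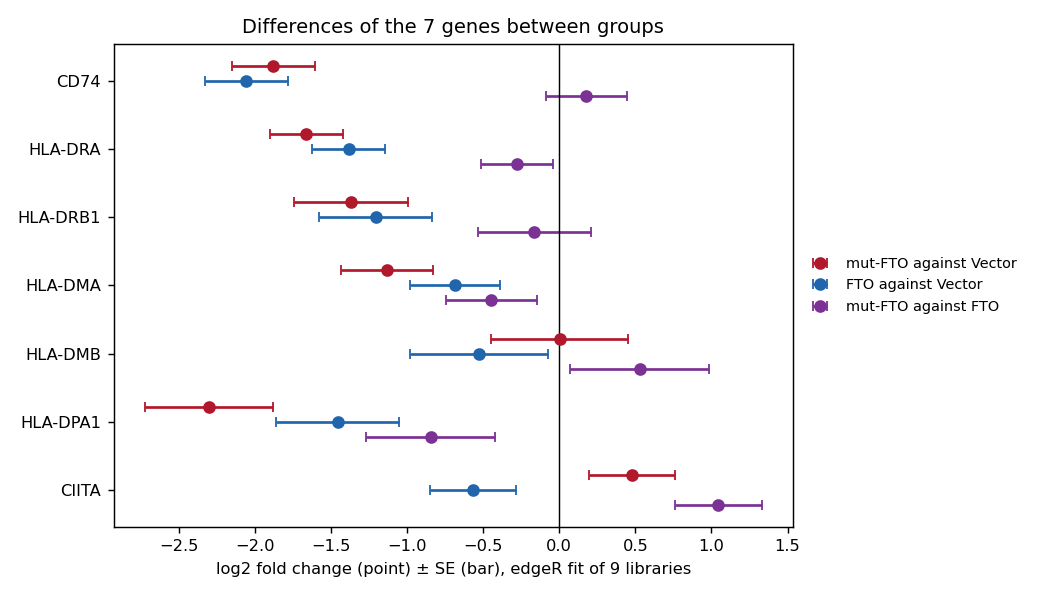
Log2 fold change (x axis, point) and its SE (bar) of each gene for mut-FTO against Vector, FTO against Vector and mut-FTO against FTO, from 1 edgeR fit of 9 libraries. Apart from CIITA and HLA-DMB the genes lie left of 0 against Vector in both groups, and CIITA lies at 1.05 for mut-FTO against FTO.

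The counts of these genes are set beside those of all tested genes, and nothing is read from them since the genes were chosen on these comparisons. With edgeR's quasi-likelihood test at an adjusted p of 0.05 over all tested genes, 618 were called lower in mut-FTO than in Vector, 4.51% of those tested, and 5 of the 7 members were among them (CD74, HLA-DRA, HLA-DRB1, HLA-DMA and HLA-DPA1). For FTO against Vector, 60 genes or 0.438% were called lower, with 2 of the 7 (CD74 and HLA-DRA). For mut-FTO against FTO, 319 genes or 2.33% were called in either direction and 0 of the 7, with 1 below an unadjusted p of 0.05, 1 called by DESeq2 (CIITA) and 0 by limma-voom. All 3 libraries of a group below all Vector libraries were seen in 11.8% of tested genes for mut-FTO and 10.9% for FTO, and in 4 of the 7 members each time. The members' median log2 fold change was -1.37 in mut-FTO and -1.20 in FTO against Vector, beside medians of -0.0012 and -0.0020 over all tested genes. Both comparisons share the Vector libraries. With 1 library left out at a time, 3 to 5 members were called lower in mut-FTO and 1 to 5 in FTO. The 5 calls in mut-FTO became 3 without mut-FTO replicate 1 or 2, FTO replicate 1 or 2, or Vector replicate 1 or 2. The 2 in FTO became 1 without any 1 FTO library or Vector replicate 2, and 5 without Vector replicate 3, when HLA-DRB1, HLA-DPA1 and CIITA joined.

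Levels can be compared between genes only per length, here as CPM per kilobase of the longest coding sequence. The order of the genes depends on this choice, and per kilobase of merged exons it changed in part, as given below. On this coding-length scale CD74 led the 7 genes with 17.6 ± 7.34 in mut-FTO, 15.5 ± 2.91 in FTO and 64.6 ± 6.28 in Vector (SD, n = 3 each). HLA-DRA followed with 7.14 ± 1.40 in mut-FTO, 8.64 ± 0.534 in FTO and 22.6 ± 6.20 in Vector on the same scale. HLA-DRB1 (5.03, 5.65 and 13.0 on average in mut-FTO, FTO and Vector) overlapped HLA-DRA in mut-FTO but not in FTO, where its highest library was 7.64 and the lowest of HLA-DRA 8.03. In Vector the 2 DR chains just missed each other, HLA-DRB1 reaching 16.8 and HLA-DRA starting at 16.9. HLA-DMA (2.14, 2.91 and 4.69 in mut-FTO, FTO and Vector) and CIITA (4.33, 2.09 and 3.10) changed places: every mut-FTO library had more CIITA per length, every Vector library more HLA-DMA, and the FTO ranges overlapped. HLA-DPA1 (0.686, 1.23 and 3.40) stayed below HLA-DMB (1.55, 1.07 and 1.54) in all mut-FTO libraries and above it in all Vector libraries, and again the FTO ranges overlapped. Per coding length the highest class II chain was a gene outside the 7: HLA-DQB1 had 57.2 ± 4.16, 58.4 ± 4.04 and 61.5 ± 22.5 in mut-FTO, FTO and Vector. Per kilobase of merged exons, HLA-DRA was above HLA-DQB1 in Vector on average (13.4 against 10.1 CPM). On that scale HLA-DRA was also above CD74 in FTO on average (5.14 against 4.33), with overlap. The 2 DR chains overlapped in every group. HLA-DMA (0.469 to 0.855) and CIITA (0.608 to 0.793) overlapped in mut-FTO, and HLA-DMA was above CIITA in all FTO and Vector libraries.

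Within a library the genes can be set against CIITA without any scaling between libraries. There were 0.769, 1.37 and 0.975 CD74 counts per CIITA count in mut-FTO, 1.94, 2.10 and 1.83 in FTO, and 4.15, 4.53 and 10 in Vector libraries. The 3 groups did not overlap, with mut-FTO lowest and Vector highest. In CPM, CD74 itself overlapped between mut-FTO and FTO (log2 fold change 0.18, SE 0.27), while CIITA was higher in mut-FTO (1.05, SE 0.28). Vector replicate 3, with the ratio of 10, had 6.15 CPM of CIITA, against 12.3 and 13.1 CPM in the other Vector libraries. For HLA-DRA the ratio was 0.343, 0.392 and 0.371 in mut-FTO, 1.14, 0.970 and 0.754 in FTO, and 1.05, 1.25 and 3.62 in Vector libraries. Here mut-FTO stood below the rest, while FTO and Vector overlapped. The CPM of HLA-DRA itself overlapped between mut-FTO and FTO. HLA-DRA and CD74 did not keep 1 ratio either: there were 44.6, 28.5 and 38.1 HLA-DRA counts per 100 CD74 counts in mut-FTO, 58.9, 46.2 and 41.1 in FTO, and 25.3, 27.6 and 36.2 in Vector libraries. The FTO libraries were all above the Vector libraries, and mut-FTO overlapped both. In bulk RNA, fewer cells expressing these genes and less of their RNA per cell cannot be told apart.

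**Figure D3:**
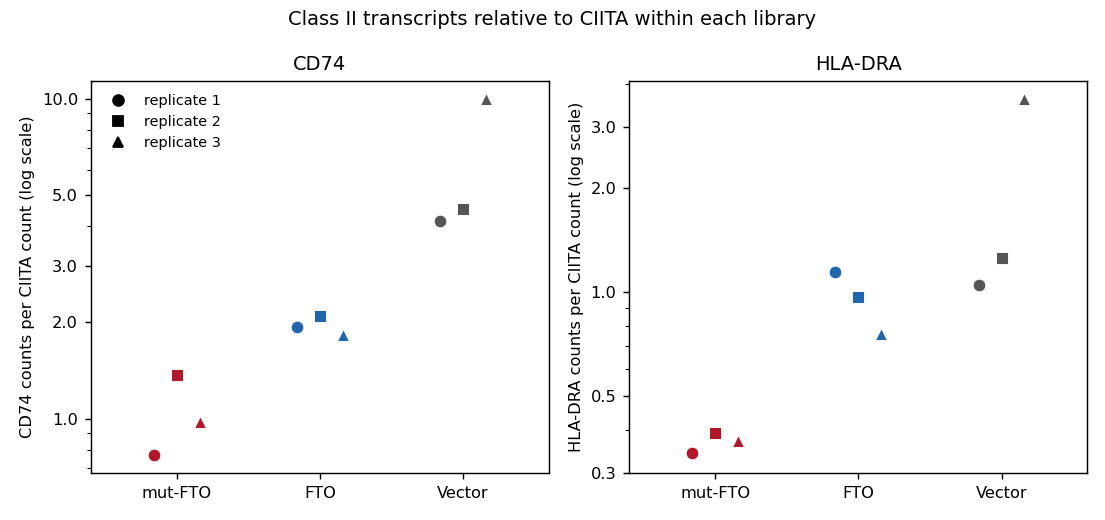
Counts of CD74 (left) and HLA-DRA (right) per count of CIITA in the same library (log y axes), by group; symbols are replicates. For CD74 the mut-FTO libraries (0.769 to 1.37) lie below FTO (1.83 to 2.10), which lie below Vector (4.15 to 10). For HLA-DRA the FTO and Vector points overlap. In CPM both genes overlapped between mut-FTO and FTO, while CIITA was higher in mut-FTO.

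The other genes of the pathway were tested across all genes. Their lists too were drawn up with earlier results of these data known, so their counts are no independent evidence of a direction. Of 58 listed genes 47 were tested, and with edgeR 5 fell and 0 rose in mut-FTO against Vector, against 7.78% of all tested genes called in that comparison. Those 5 were HLA-DRB5, CTSS, CTSL, B2M and HLA-F. In FTO against Vector edgeR called 0 of the 47, with 10 below an unadjusted p of 0.05, 3 called by DESeq2 (HLA-DRB5, CTSS and CTSL) and 0 by limma-voom, beside 0.744% of all tested genes called by edgeR. In mut-FTO against FTO 3 fell (CTSS, CTSL and B2M) and 0 rose, beside 2.33% of all tested genes called. Vector replicate 3 moved these counts most: without it edgeR called 14 in mut-FTO against Vector, 9 in FTO against Vector and 9 in mut-FTO against FTO. Calls over all genes in that same fit also went up, to 2089, 476 and 1427 in the same order, against 1067, 102 and 319 with all libraries. The median log2 fold change of the 47 was -0.09 in mut-FTO and -0.08 in FTO against Vector, near that of all genes.

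**Figure D4:**
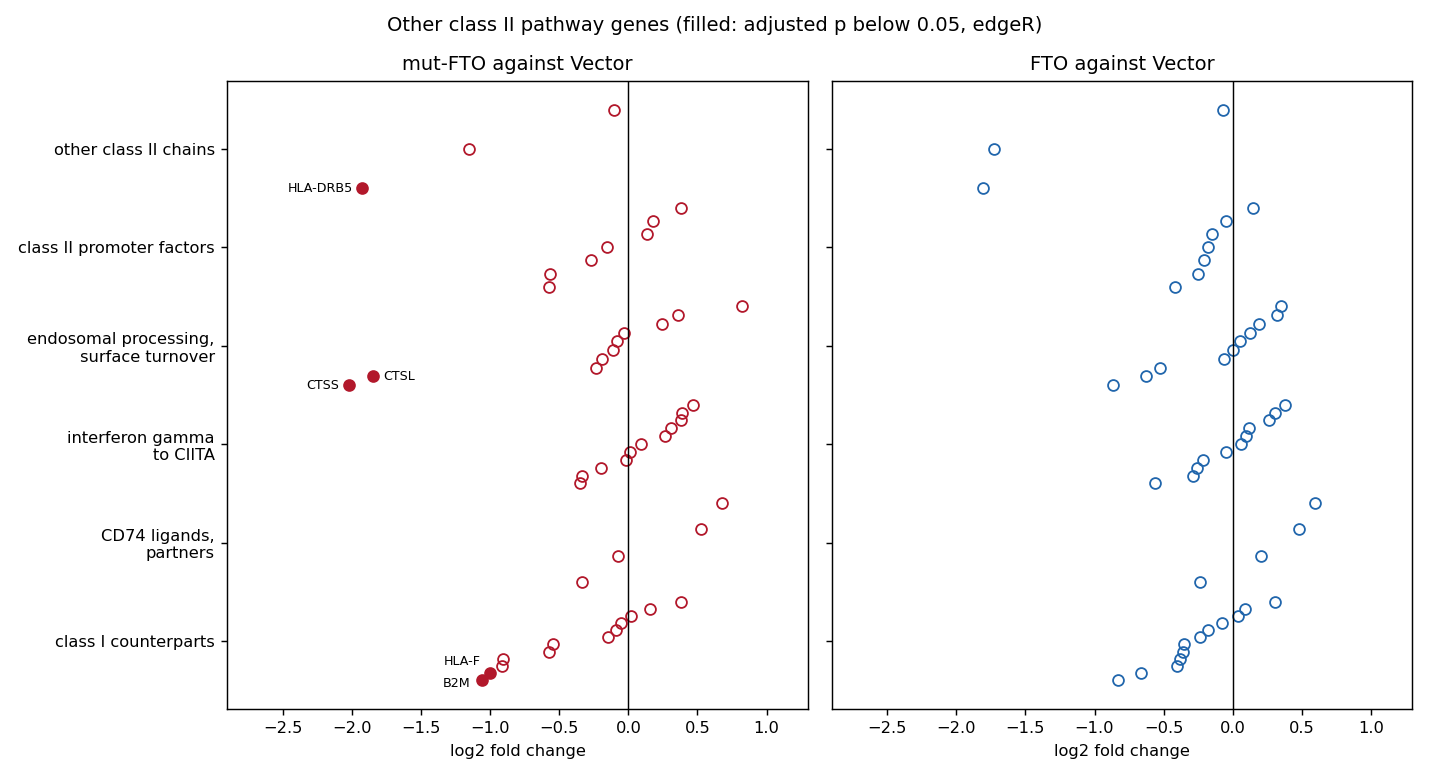
Log2 fold change (x axes) of each tested gene of 6 pathway lists (rows) for mut-FTO against Vector (left) and FTO against Vector (right); filled circles have an adjusted p below 0.05 (edgeR). The 5 filled genes are all lower in mut-FTO, and no circle is filled for FTO.

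Of 10 other class II chains 3 were tested. HLA-DRB5, a second DR beta chain, had 0.568, 1.09 and 0.636 CPM in mut-FTO, 1.09, 0.697 and 0.687 CPM in FTO, and 3.62, 2.94 and 2.11 CPM in Vector libraries. Vector was above both other groups without overlap. HLA-DRB5 fell in mut-FTO against Vector (log2 fold change -1.93, SE 0.39, edgeR adjusted p = 0.00874). In FTO against Vector its log2 fold change was -1.80 (SE 0.38) with an adjusted p of 0.0558 in edgeR, which became 0.0101 without Vector replicate 3, 0.0456 with total counts alone as scaling, 0.0437 with no filter and 0.00124 with DESeq2. HLA-DQA1, the alpha chain of DQ, averaged 0.588 ± 0.188 CPM in mut-FTO, 0.391 ± 0.163 CPM in FTO and 1.31 ± 0.526 CPM in Vector (SD, n = 3 each), without passing the test (edgeR adjusted p = 0.229 and 0.224 against Vector). All of its mut-FTO and FTO libraries were below all Vector libraries, with log2 fold changes of -1.15 (SE 0.52) and -1.73 (SE 0.54). In FTO against Vector it passed in 1 of 18 alternatives, without the libraries that stood apart (edgeR adjusted p = 0.0407). In mut-FTO against Vector it passed in 0. HLA-DQB1, the beta chain of DQ, averaged 46.1 ± 3.35, 47.1 ± 3.26 and 49.6 ± 18.2 CPM in mut-FTO, FTO and Vector (SD, n = 3 each), with edgeR adjusted p = 0.847 and 0.932 against Vector. HLA-DQB1 overlaps an antisense gene, whose reads cannot be told from its own where strand is not known. The other chains had at most 18 counts in any library or were not matched.

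CTSL and CTSS, which encode proteases that trim CD74, had the lowest p of the tested pathway genes in mut-FTO against Vector. The other proteases of the list did not pass there: edgeR adjusted p was 0.176 for LGMN, 0.570 for CTSD, 0.882 for CTSV and 0.946 for CTSB, and LGMN was higher in every mut-FTO than in every Vector library (log2 fold change 0.36). Of 10 tested genes of invariant chain processing and surface turnover, 2 fell and 0 rose in mut-FTO against Vector. CTSL, encoding cathepsin L, had 71.3, 69.6 and 66.7 CPM in mut-FTO, 147, 164 and 173 CPM in FTO, and 240, 239 and 269 CPM in Vector libraries. The groups formed 3 separate steps. CTSL fell in mut-FTO against Vector (log2 fold change -1.85, SE 0.14, edgeR adjusted p = 1.22e-05, 3.60-fold lower) and against FTO (-1.22, SE 0.14, edgeR adjusted p = 0.000943, 2.33-fold lower). In FTO against Vector it was -0.63 (SE 0.14, edgeR adjusted p = 0.0671), past the threshold without Vector replicate 3 (0.00764).

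CTSS encodes cathepsin S, the protease that makes the last cuts of CD74 in antigen-presenting cells. It had 10.03, 5.57 and 11.7 CPM in mut-FTO, 19.9, 19.9 and 21.0 CPM in FTO, and 38.7, 43.2 and 29.2 CPM in Vector libraries. Again no groups overlapped. CTSS fell in mut-FTO against Vector (log2 fold change -2.02, SE 0.26, edgeR adjusted p = 0.000427, 4.07-fold lower) and against FTO (-1.16, SE 0.25, edgeR adjusted p = 0.0348, 2.23-fold lower). The call against FTO was lost when any 1 mut-FTO or FTO library was left out (adjusted p up to 0.150), and the adjusted p was 0.0503 with total counts alone as scaling. In FTO against Vector CTSS had a log2 fold change of -0.87 (SE 0.25, edgeR adjusted p = 0.185), and 0.0107 as adjusted p without Vector replicate 3. IFI30, the thiol reductase of antigen processing, averaged 90.5 ± 3.01, 98.5 ± 8.30 and 103 ± 46.8 CPM in mut-FTO, FTO and Vector (SD, n = 3 each), with edgeR adjusted p = 0.757 and 0.953 against Vector. Without Vector replicate 3, IFI30 passed in mut-FTO against Vector (log2 fold change -0.528, edgeR adjusted p = 0.00683). The list as a whole had 0 genes called in FTO against Vector by edgeR, 3 below an unadjusted p of 0.05, 2 by DESeq2 and 0 by limma-voom.

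The factors that bind class II promoters did not pass the test. Of 7 tested genes (RFX5, RFXANK, RFXAP, CREB1, NFYA, NFYB and NFYC), 0 were called in any of the 3 comparisons by edgeR, DESeq2 or limma-voom, and 0 had an unadjusted edgeR p below 0.05. RFX5 averaged 93.7 ± 6.12 CPM in mut-FTO, 79.8 ± 1.49 CPM in FTO and 82.6 ± 11.9 CPM in Vector (SD, n = 3 each; log2 fold changes against Vector 0.18, SE 0.15, and -0.05). RFXANK averaged 57.1 ± 3.26, 48.6 ± 1.59 and 44.0 ± 10.6 CPM in mut-FTO, FTO and Vector (SD, n = 3 each). RFXAP was scarce, with 2.38, 0 and 1.85 CPM in mut-FTO, 1.35, 1.66 and 1.72 CPM in FTO, and 1.61, 2.80 and 1.92 CPM in Vector libraries.

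The genes from interferon gamma to CIITA did not pass either. Of 11 tested, 0 were called in any of the 3 comparisons by edgeR, DESeq2 or limma-voom, with 1 below an unadjusted edgeR p of 0.05 in each. Without Vector replicate 3 edgeR called 2 higher in mut-FTO against Vector (IFNGR1 and PTPN2), 1 higher in FTO against Vector (PTPN2) and 2 higher in mut-FTO against FTO (IRF1 and SOCS1). Calls over all genes in that fit, in either direction, were 2089, 476 and 1427 in the same order. IRF1, a transcription factor that acts at the interferon-responsive CIITA promoter, averaged 187 ± 20.2, 146 ± 7.88 and 151 ± 38.5 CPM in mut-FTO, FTO and Vector (SD, n = 3 each; edgeR adjusted p = 0.390 and 0.949 against Vector). A p that misses the threshold does not show that the levels were equal.

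CD74 also serves at the cell surface as the receptor of the cytokine MIF, with CD44 as its signalling partner. Of 4 tested ligands and partners, edgeR and limma-voom called 0 in any comparison, with 2, 1 and 1 below an unadjusted edgeR p of 0.05 in mut-FTO against Vector, FTO against Vector and mut-FTO against FTO. DESeq2 called 0, 0 and 1 in the same order, the 1 being ACKR3, a receptor that also binds MIF. Without Vector replicate 3 edgeR called ACKR3 lower in mut-FTO against FTO as well. MIF averaged 862 ± 113 CPM in mut-FTO, 836 ± 74.0 CPM in FTO and 599 ± 269 CPM in Vector (SD, n = 3 each). CD44 averaged 1039 ± 68.9 CPM in mut-FTO, 929 ± 54.1 CPM in FTO and 1097 ± 279 CPM in Vector (SD, n = 3 each).

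Of 12 tested class I counterparts, which present peptides from inside the cell, 2 fell and 0 rose in mut-FTO against Vector. B2M, the light chain of class I, averaged 1439 ± 100 CPM in mut-FTO, 2303 ± 216 CPM in FTO and 3003 ± 208 CPM in Vector (SD, n = 3 each). B2M fell in mut-FTO against Vector (log2 fold change -1.06, SE 0.16, edgeR adjusted p = 0.00124) and against FTO (-0.68, SE 0.16, edgeR adjusted p = 0.0448). The call against FTO was lost without any 1 mut-FTO or FTO library or Vector replicate 2 (adjusted p up to 0.227). HLA-F, a less variable class I heavy chain, averaged 51.4 ± 2.07 CPM in mut-FTO, 64.7 ± 4.43 CPM in FTO and 103 ± 32.5 CPM in Vector (SD, n = 3 each). HLA-F fell in mut-FTO against Vector (log2 fold change -0.999, SE 0.21, edgeR adjusted p = 0.0127), a call lost without any 1 mut-FTO library or Vector replicate 2 (adjusted p up to 0.0614). NLRC5, the class I counterpart of CIITA, averaged 5.42 ± 1.03, 5.76 ± 0.754 and 10.2 ± 3.91 CPM in mut-FTO, FTO and Vector (SD, n = 3 each) with edgeR adjusted p = 0.0830 and 0.294 against Vector. In mut-FTO against Vector NLRC5 passed with DESeq2 (adjusted p = 0.0297) and with edgeR without Vector replicate 3 (0.00076). For FTO against Vector edgeR called 0 of the 12, with 3 below an unadjusted p of 0.05 and 0 called by DESeq2 or limma-voom. Without Vector replicate 3 edgeR called 8 of the 12 lower in mut-FTO and 5 lower in FTO against Vector, and 3 in mut-FTO against FTO, of which 2 were lower. Over all genes that fit called 2089, 476 and 1427 in the same order and either direction, against 1067, 102 and 319 with all libraries. DESeq2 with all libraries called 4 in mut-FTO against Vector (NLRC5, HLA-B, HLA-F and B2M).

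The 5 genes whose pattern over the 9 libraries was most like that of CD74 were FOXC2, SIRPA, MX1, MYLK and SLCO2A1. The measure was the root mean square difference in log2 CPM centred on each gene's mean, among 12054 genes with at least 1 CPM on average, and it ran from 0.264 for FOXC2 to 0.363 for SLCO2A1. SIRPA, the receptor of CD47, averaged 4.55 ± 1.44 CPM in mut-FTO, 5.14 ± 0.860 CPM in FTO and 14.1 ± 2.11 CPM in Vector (SD, n = 3 each). MX1, an interferon-induced antiviral GTPase, averaged 2.93 ± 0.338 CPM in mut-FTO, 3.32 ± 0.270 CPM in FTO and 14.1 ± 2.25 CPM in Vector (SD, n = 3 each). Among the members HLA-DRA was nearest to CD74 on this measure (0.376), then HLA-DMA (0.626), HLA-DPA1 (0.631), HLA-DRB1 (0.723), HLA-DMB (0.895) and CIITA (1.10). Set among the 12054 other genes, they would rank 6, 104, 108, 271, 1711 and 7477 in the same order. Levels of CD74 itself chose these genes, so their differences between groups are a description.

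Markers of antigen-presenting cells and other leukocytes were checked, since those cells carry far more class II. Of 20 such markers, 7 had no count in any library (among them CD207, CD1A, CD1C, CD80, MS4A1 and TYROBP), and PTPRC, the common leukocyte antigen, had 2 counts in 1 mut-FTO library and none elsewhere. Others were counted in every library: CD14 (375 to 1048 counts), CD86 (260 to 481), CD40 (68 to 174), CORO1A (68 to 191) and LAPTM5 (19 to 136). The summed level of the 20 was 45.2 to 49.8 CPM in mut-FTO, 34.7 to 35.4 CPM in FTO and 34.3 to 37.3 CPM in Vector libraries. Of 7 tested, CD14 rose (log2 fold change 1.01, SE 0.19) and LAPTM5 fell (-1.52, SE 0.41) in mut-FTO against Vector, with edgeR adjusted p = 0.00600 and 0.0382. The LAPTM5 call was lost in 7 of the 9 fits that leave out 1 library (adjusted p up to 0.141). CD86 was lower and ITGAM, with at most 28 counts in a library, higher in every mut-FTO than in every Vector library. Neither passed (edgeR adjusted p = 0.347 and 0.135). All 12 keratinocyte markers were counted, with a sum of 28700 to 36000 CPM in mut-FTO, 25600 to 26600 CPM in FTO and 22300 to 27600 CPM in Vector libraries. Of these, KRT5 and KRT14, the keratins of basal keratinocytes, rose in mut-FTO against Vector (log2 fold changes 0.69 and 0.91, edgeR adjusted p = 0.0468 and 0.00876). The list did not move 1 way, since 5 of the 12 had a log2 fold change below 0. Among those 5, TP63 (-0.50) and COL17A1 (-0.42) were lower in every mut-FTO than in every Vector library, as in 11.8% of tested genes. They did not pass (edgeR adjusted p = 0.174 and 0.184). The KRT5 call was lost in 7 of those 9 fits (adjusted p up to 0.173), and the KRT14 call without mut-FTO replicate 2 (0.0512). Their part in the class II differences was not tested.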

How the data were processed

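Poly(A) RNA of 9 HaCaT libraries was sequenced. The authors deposited 1 table of whole-number counts per gene, not normalized. HISAT2 and StringTie are named, per the submitters' processing notes, without versions. The counting program, its annotation and its strand handling were not given in the sources used here. Those notes give the build as mm10, which is murine, while the line and the gene symbols are human; how this bears on the counts is not known. Coordinates here come from GENCODE 29 and RefSeq by gene symbol. Columns were matched to groups by their letters.

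Counts were filtered with filterByExpr (minimum count 10, minimum total 15), scaled by TMM and fitted in edgeR 4.0.16 (R 4.3.3), with a robust quasi-likelihood test, all 9 libraries in 1 model and Benjamini-Hochberg adjustment over 13713 genes at 0.05. CPM used TMM-scaled sizes and log2 CPM a prior count of 2. SE was derived from the log2 fold change and the F statistic. Alternatives were DESeq2 1.42.0, limma-voom (limma 3.58.1), other scaling, filters and samples, and a replicate block. Scripts were tested on simulated data. No 2 libraries agreed within sampling noise.

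The 7 members and all gene lists were chosen with earlier results of these data known. The table held 93 list genes under their symbol and 2 under an older one, and lacked a match for 2 (HLA-DRB3 and HLA-DRB4). Named genes are all members, list genes past the threshold, genes the members depend on directly, and the 5 genes most like CD74. HLA-DQA1, HLA-DQB1, HLA-DPB1, NLRC5, ACKR3 and the named markers fall outside that rule and were chosen after their values were seen. Some genes that the rule takes are named nowhere in the text and are not reported here.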

Additional observations from a re-analysis of the deposited data

Results flagged for a closer look

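CIITA differed in direction between the groups: all mut-FTO libraries were above and all FTO libraries below the Vector mean of 10.5 CPM, and the log2 fold change of mut-FTO against FTO was 1.05. CIITA was chosen with these values known, so its calls given above are no test of this difference. Without Vector replicate 3 the Vector mean is 12.7 CPM, above mut-FTO replicate 1 (12.6 CPM), so the pattern rests on that library.

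CTSL, CTSS and B2M differed between mut-FTO and FTO by edgeR's test of that difference, with log2 fold changes of -1.22, -1.16 and -0.68 and adjusted p = 0.000943, 0.0348 and 0.0448. When any 1 mut-FTO or FTO library was left out, CTSS and B2M lost this call, and under the replicate block their adjusted p was 0.0658 and 0.110. CTSL kept it in all of these fits.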

How the results depend on the processing

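Of the counts over all genes, the 1067 called in mut-FTO against Vector became 1680 with DESeq2, 621 with only the 6 samples compared and 2401 without the 2 libraries that stood apart. The 102 called in FTO against Vector became 67 with the replicate block, 366, 41 and 1050 in the same order, and the 319 called in mut-FTO against FTO became 751, 1218 and 1196. Of the other pathway genes, 14 of 49 tested were called in mut-FTO against Vector without those 2 libraries, against 5 of 47. The number tested changed with the filter and was 55 with no filter. In FTO against Vector, against 0, there were 1 with total counts alone, 1 with no filter, 3 with DESeq2 and 15 without those libraries. In mut-FTO against FTO, against 3, there were 1 with the replicate block, 6 with only the 6 samples compared and 9 without those libraries. With 1 library left out, the counts over all genes ran from 609 to 2089, 27 to 476 and 71 to 1427, and those of the pathway from 4 to 14, 0 to 9 and 1 to 9, in mut-FTO against Vector, FTO against Vector and mut-FTO against FTO. The highest of each range came without Vector replicate 3. The lowest over all genes came without mut-FTO replicate 3 for mut-FTO against Vector and without FTO replicate 3 for the others. Deviations from the group mean correlated at -0.127 to 0.106 between same-numbered libraries and at -0.116 to 0.151 between differently numbered ones. With 3 libraries a group this cannot decide whether same-numbered libraries were handled together. Under the block HLA-DRB1 and HLA-DMA were no longer called lower in mut-FTO against Vector, which left 3 of 5 members, and CTSS (adjusted p = 0.0658) and B2M (0.110) were no longer called in mut-FTO against FTO.

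Some small log2 fold changes, none of them called with all 9 libraries, changed sign. Among the members HLA-DMB in mut-FTO against Vector (0.0019) was negative in 11 of 18 alternatives (down to -0.576), and in mut-FTO against FTO CD74 ran from -0.202 to 0.427 and HLA-DRB1 from -0.432 to 0.128. Without the libraries that stood apart, the sign changes among other genes were CD44 in mut-FTO against Vector (0.0802), RFXANK (-0.0479) and KRT5 (-0.0824) in FTO against Vector, and RFXAP (0.411), MIF (-0.0395) and HLA-DQB1 (0.00595) in mut-FTO against FTO. IFI30 in FTO against Vector turned to 0.00217 with the replicate block and 0.0616 with limma-voom. For other genes with 1 library left out, mut-FTO against Vector ran from -1.16 to 0.00832 for RFXAP, -0.528 to 0.0851 for IFI30, -0.377 to 0.145 for HLA-DQB1 and -0.185 to 0.142 for CD44. FTO against Vector ran from -0.267 to 0.0939 for IRF1, -0.419 to 0.210 for IFI30, -0.361 to 0.177 for HLA-DQB1, -0.175 to 0.0551 for RFX5, -0.0574 to 0.307 for RFXANK and -0.0918 to 0.185 for KRT5. Between mut-FTO and FTO it ran from -0.448 to 0.130 for HLA-DRB5, -0.251 to 0.0197 for NLRC5, -0.746 to 0.428 for RFXAP, -0.0221 to 0.147 for MIF and -0.0874 to 0.0255 for HLA-DQB1. The cause was not tested. CD74 stayed lower than in Vector in both groups under all 18 alternatives.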
